A study of Mus musculus with 12 samples.

Results

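Lifelong aspartame exposure was compared with its control in the hypothalamus of male C57Bl/6J mice aged 21 weeks. The 3 arrays of mice exposed to aspartame alone (ASP) and the 3 arrays of control mice on plain drinking water (CON) were chosen by their labels, which makes 6 of the 12 arrays of the series. ASP mice drank water with the sweetener aspartame, at a dose that the labels give as 46 mg per kg of body weight, first through the mother and then for life. The other 6 arrays belong to mice exposed during development to the NMDA receptor antagonist CGP 39551 at 5 mg/kg, without aspartame (CGP) or with it (ASP+CGP). Exposure to CGP 39551 ran through the mother until weaning. Mice of all 4 groups had earlier undergone behavioral testing and were fasted overnight before tissue collection, and their hypothalamus was cut out as a rectangular block. Each group's RNA had been combined into 1 pool, which was hybridized 3 times. Spread between mice was thus not measured, p-values cover only the scatter of repeat arrays, and an effect of aspartame and an effect of how a pool was made up cannot be told apart. In bulk RNA, fewer cells of a type and less RNA per cell cannot be told apart either.

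The hypothalamus controls feeding, water balance, body temperature and the pituitary gland through small groups of neurons that secrete neuropeptides. One of its outputs is the stress axis, in which corticotropin-releasing hormone drives the pituitary to release adrenocorticotropic hormone (ACTH), and ACTH drives the adrenal cortex to make glucocorticoids from cholesterol. The enzymes of steroid synthesis lie in mitochondria and endoplasmic reticulum and are most abundant in adrenal cortex and gonads, with low levels known in brain. Aspartame is split in the gut into aspartic acid, phenylalanine and methanol.

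A signal here is a log2 value summarised by RMA, so that a difference of 1 is a doubling, and 1 probe set stood for each of 17186 genes. Across the 6 arrays the median signal ranged from 8.56 to 8.60. Arrays of the same pool correlated across probe sets at 0.9957 to 0.9983, and ASP with CON arrays at 0.9896 to 0.9927. The third CON array lay farthest from the mean of its pool, with an SD of the deviation of 0.0903 against 0.0566 to 0.0689 on the other 5 arrays. Of 10 genes that mark the hypothalamus 9 were measured, and their mean signals ranged from 8.35 to 12.65 in CON and from 8.19 to 12.49 in ASP. RNA of hypothalamus genes was thus present in both pools. These signals cannot show whether a pool also held RNA of other tissue. The cytoskeletal reference gene Actb read 13.89, 13.97 and 13.85 in CON and 13.96, 13.95 and 13.92 in ASP.

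Far more genes were upregulated than downregulated in ASP relative to CON, and the largest changes were in genes of steroid synthesis. With limma, a gene was called when it changed more than 1.4-fold at a Benjamini-Hochberg adjusted p under 0.05. By this rule 175 of 17186 genes (1.02%) were upregulated and 5 (0.0291%) were downregulated. Each count of called list members below is to be read beside these shares of all genes. The adjusted p alone was passed by 502 higher genes (2.92%) and 200 lower genes (1.16%), and 2907 genes had an unadjusted p under 0.05. The 3 ASP arrays lay above the 3 CON arrays for 1706 genes (9.93%) and below them for 2396 (13.9%), which includes all 175 upregulated and all 5 downregulated genes. Of the upregulated genes, 105 changed less than 2-fold, 39 from 2-fold to 4-fold, 18 from 4-fold to 8-fold and 13 by 8-fold or more. Their CON signals covered the range of the arrays, with 19 under 6, 44 from 6 to 7, 55 from 7 to 8, 41 from 8 to 10 and 16 at 10 or over. The median difference of all genes was -0.013. ASP was also set against the mean of CGP and ASP+CGP in the same fit, where 185 genes (1.08%) were higher and 0 (0%) were lower. At an unadjusted p under 0.05 2052 genes were lower in this comparison, and 401 passed the adjusted p at any fold. This second comparison uses the same ASP arrays as the first. Because it averages CGP and ASP+CGP, a gene could be higher in it without lying above both pools. Fshb was such a gene, with means of 9.04 in ASP, 9.26 in CGP and 7.36 in ASP+CGP.

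**Figure D1:**
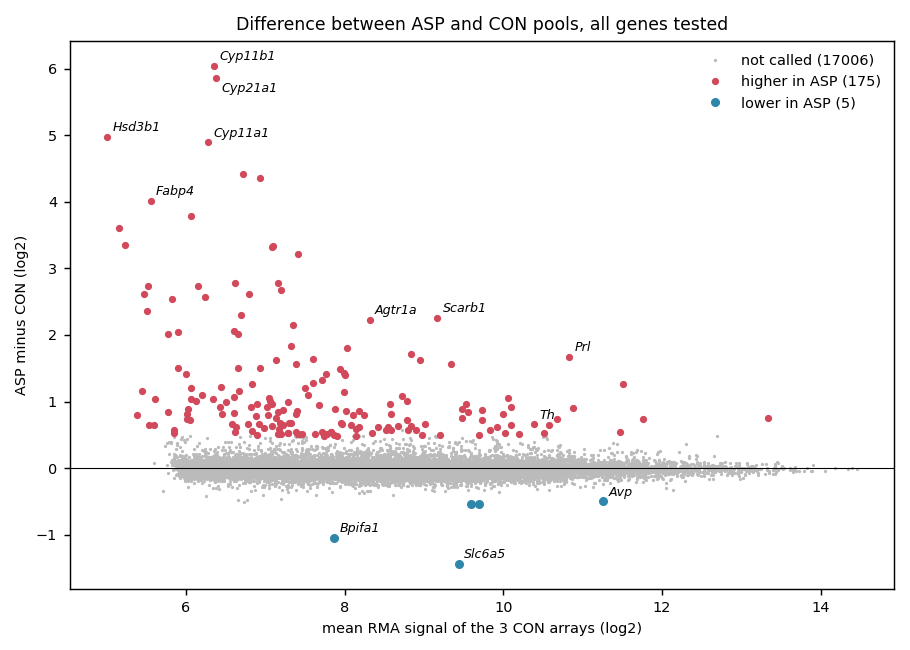
Difference of the ASP and CON means (y axis, log2) against the mean signal of the 3 CON arrays (x axis, log2 RMA signal) for each of 17186 genes; red points are the 175 upregulated genes and blue points the 5 downregulated genes. Upregulated genes reach 6.04 for Cyp11b1, and the lowest value is -1.43 for Slc6a5.

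Of 10 listed genes of steroid hormone synthesis 8 were measured, and all 8 were upregulated in ASP (all genes, 1.02%). Their median log2 fold change was 4.66 against -0.013 over all genes. Fdxr and Por were listed but not among the measured genes. Hsd3b1 was kept by the signal filter (6 or more on at least 3 arrays) only through its ASP arrays. Its place among the 8 thus followed from its rise. Cyp11b1 encodes the 11 beta-hydroxylase that makes corticosterone in the adrenal cortex. It read 6.33, 6.29 and 6.46 on the CON arrays and 12.44, 12.39 and 12.39 on the ASP arrays, a 66-fold rise. Cyp21a1, the steroid 21-hydroxylase of the same pathway, read 6.46, 6.36 and 6.34 in CON and 12.22, 12.31 and 12.22 in ASP. Each ASP array stood more than 5 log2 units above every CON array for these genes. Cyp11a1, which cleaves the side chain of cholesterol and so begins steroid synthesis, read 6.16, 6.28 and 6.41 in CON and 11.19, 11.16 and 11.19 in ASP. Star, which brings cholesterol to that enzyme, read 6.74, 6.79 and 6.65 and 11.10, 11.15 and 11.16. Hsd3b1, a 3 beta-hydroxysteroid dehydrogenase, read 4.97, 4.93 and 5.14 and 10.12, 9.97 and 9.87, and against a signal of 6 instead of its lower CON mean the rise was 15.9-fold. The ASP arrays of these 5 genes lay close together, with SDs from 0.02 for Cyp11a1 to 0.12 for Hsd3b1.

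The remaining members, named after their values were seen, rose less. Cyp11b2, the aldosterone synthase of the outer adrenal cortex, read 6.52, 6.77 and 6.67 in CON and 8.11, 8.07 and 8.27 in ASP. Hsd3b6, the dehydrogenase of aldosterone-producing cells, read 5.85, 5.96 and 5.91 and 7.68, 7.35 and 7.19, with an SD of 0.25 among the ASP arrays. Fdx1, the ferredoxin that passes electrons to the mitochondrial enzymes, read 7.55, 7.58 and 7.69 and 8.85, 8.98 and 8.83. Cyp11b1 with Cyp11b2, and Hsd3b1 with Hsd3b6, are close paralogs whose probes may share signal, so the smaller member of each pair is uncertain. The summed linear signal of the 8 genes ranged from 715 to 758 on CON arrays, from 739 to 765 on CGP arrays and from 770 to 785 on ASP+CGP arrays, against a range from 16577 to 16928 on ASP arrays.

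**Figure D2:**
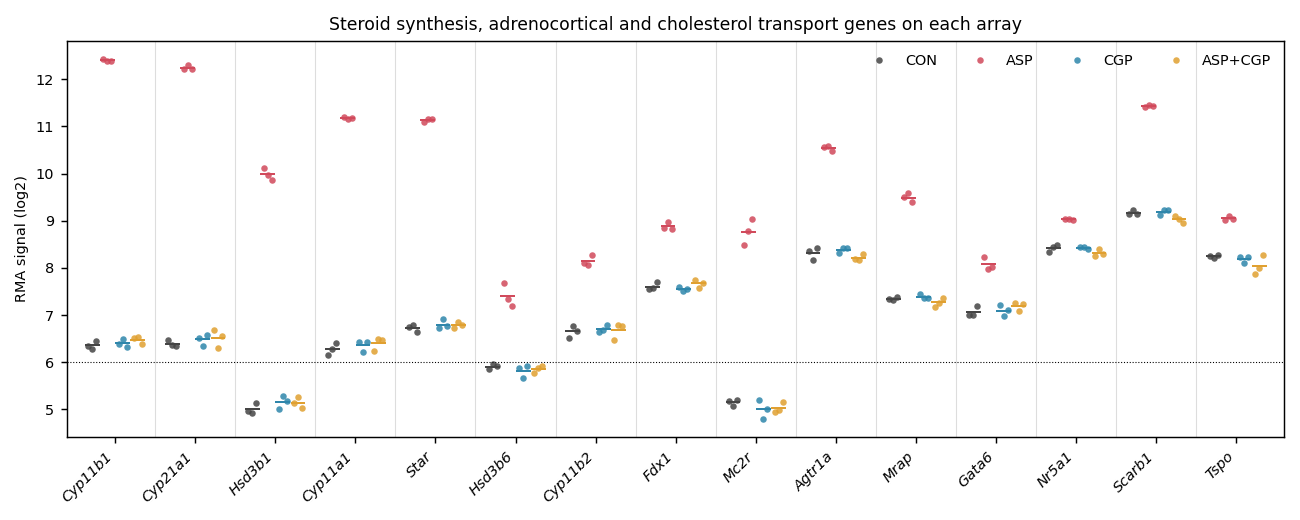
RMA signal (y axis, log2) of genes of steroid synthesis, the adrenal cortex and cholesterol transport (x axis), 1 point per array and 1 short bar per pool mean; the dotted line marks a signal of 6. The 3 ASP arrays lie above the other 9 arrays for each gene, at a mean of 12.40 for Cyp11b1 against 6.36 in CON.

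Among receptors, regulators and other markers of the adrenal cortex 5 of 8 genes rose (all genes, 1.02%), with a median of 0.81. Mc2r is the ACTH receptor and Mrap the accessory protein that brings it to the cell surface. Mc2r read 5.19, 5.07 and 5.21 in CON and 8.48, 8.78 and 9.04 in ASP, a rise of 6.81-fold against a signal of 6. Mc2r was kept by the signal filter only through its ASP arrays. Mrap read 7.33, 7.32 and 7.39 and 9.50, 9.58 and 9.40. Both lay at the CON level in CGP (5.00 and 7.39) and in ASP+CGP (5.02 and 7.27). Agtr1a, the angiotensin receptor that drives aldosterone release and is also present in hypothalamus, rose 4.68-fold, from 8.36, 8.16 and 8.42 to 10.57, 10.59 and 10.48. Nr5a1 (SF-1), the transcription factor of steroid-producing cells and of the ventromedial hypothalamus, read 8.34, 8.44 and 8.48 and 9.05, 9.03 and 9.01, and Gata6 read 6.99, 7.01 and 7.19 and 8.23, 7.97 and 8.03. As for all 175 upregulated genes, no ASP array of these 5 genes overlapped a CON array (ASP above among all genes, 9.93%). Nr0b1, a partner of Nr5a1, had 0.11 ± 0.07 (log2 fold change ± SE), and Inha, an inhibin subunit, 0.14 ± 0.05, both named after their values were seen.

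Genes of cholesterol uptake, storage and export rose for 3 of 13 measured members (all genes, 1.02%). Scarb1, the receptor through which steroid-producing cells take up cholesterol from high density lipoprotein, read 9.14, 9.22 and 9.15 in CON and 11.40, 11.45 and 11.43 in ASP. Tspo, an outer mitochondrial membrane protein, rose 1.74-fold and Lipe, the hormone-sensitive lipase that frees cholesterol and fatty acids, 1.58-fold. The other 10 of 13 measured genes of uptake, storage and export were not called, and the median of the list was 0.08. Of 10 genes that synthesize cholesterol or regulate its synthesis only Dhcr7, the enzyme of the last step, rose (all genes, 1.02%). It read 9.81, 9.87 and 9.81 in CON and 10.35, 10.47 and 10.41 in ASP, and the list median was 0.00. Of 11 listed enzymes that convert steroids in brain 6 were measured, and none of the 6 was called. Srd5a2, for which the study reported a rise in aspartame-exposed hypothalamus, was listed but not among the measured genes. The differences of the 6 measured enzymes ranged from -0.07 to 0.23, and Cyp46a1, the cholesterol hydroxylase of neurons, had 0.13 ± 0.07.

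The letters CAAGGTCA, which Nr5a1 is known to bind, were searched on both strands in RefSeq promoter windows of assembly GRCm38.p6. A window ran from 250 bases before to 50 after an annotated start, and a gene could have more than 1 start. They occurred in 1.56% of 32851 windows. Of 13512 tested genes with a window 1.38% held them, and of 116 upregulated genes with a window 4 did (3.45%). The 4 steroid synthesis genes with a window had 0 matches, and no window of the other 4 was at hand. The stretches upstream of the start are shown because all 3 genes rose in ASP, and they were chosen after their values were seen. They are given with the letters or their complement in capitals, 5′ to 3′ on the gene's strand. The Lhb stretch lies inside the annotated span of that gene, before a start other than its first.
Lhb (chr7:45420806-45420835, plus strand, 129 bases before the start): cctggcttcccTGACCTTGtctgtgtctcg
Dhcr7 (chr7:143823104-143823133, plus strand, 52 bases before the start): ccgctgttgccCAAGGTCAgagcgtcctgg
Cel (chr2:28563413-28563442, minus strand, 28 bases before the start): atgcacacacaTGACCTTGgccccagctcc
The fourth match, in Pon3, lay after the start. A match describes letters and not binding.

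Catecholamine synthesis genes rose at the steps that make norepinephrine and epinephrine. Th encodes tyrosine hydroxylase, the rate-limiting enzyme present in hypothalamic dopamine neurons as well as in the adrenal medulla. It read 10.33, 10.52 and 10.31 in CON and 11.04, 11.07 and 11.05 in ASP. Dbh, which turns dopamine into norepinephrine, read 6.14, 6.09 and 6.23 in CON and rose 6.63-fold. Pnmt, which forms epinephrine and is most abundant in chromaffin cells of the adrenal medulla, read 6.62, 6.39 and 6.84 and 9.21, 9.45 and 9.51. The vesicular monoamine transporter of those cells, Slc18a1, rose 1.76-fold, while that of neurons, Slc18a2, had -0.07 ± 0.04. Ddc, the decarboxylase between Th and Dbh, had -0.09 ± 0.05. Slc18a2 and Ddc, named after their values were seen, had ASP arrays below the CON arrays. In all 4 of 10 genes of the list rose (all genes, 1.02%). None of 11 genes of chromaffin and sympathetic cells passed the fold threshold, although 7 of 11 had all ASP arrays above all CON arrays (all genes, 9.93%) and the median was 0.31. Chga, chromogranin A of secretory granules, read 12.26, 12.31 and 12.34 in CON and 12.63, 12.68 and 12.69 in ASP (adjusted p = 5.75e-05), and Scg2 had -0.03 ± 0.05. Phox2a, a transcription factor of noradrenergic cells named after its values were seen, had 0.46 ± 0.07, and the summed linear signal of the catecholamine list was 7322 to 7826 in CON and 9256 to 9621 in ASP.

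Digestive enzymes of pancreatic acinar cells rose for 13 of 16 measured genes (all genes, 1.02%), with a median of 0.98. Ctrb1, chymotrypsinogen B, read 7.35, 7.29 and 7.61 in CON and 10.69, 10.69 and 10.51 in ASP. The carboxypeptidase genes Cpa1 and Cpb1 rose 6.14-fold and, against a signal of 6, 5.14-fold, and Clps, the cofactor of pancreatic lipase, 3.5-fold. The elastase gene Cela3b read 6.53, 7.04 and 7.24 in CON, a range of over 0.7, and 8.57, 8.32 and 8.45 in ASP. Several members, such as the trypsin and elastase genes, belong to families of near-identical copies whose probes may share signal. Of 10 granule proteins and transcription factors of acinar cells 3 rose (all genes, 1.02%), all secreted. They were Zg16 (5.66, 5.79 and 5.89 to 7.58, 7.85 and 7.95), Sycn (2.66-fold) and Reg1 (1.86-fold). Cpb1 and Zg16 were kept by the signal filter only through their ASP arrays. The 4 measured transcription factors that make acinar cells, Ptf1a, Rbpjl, Bhlha15 and Nr5a2, all named after their values were seen, had differences from -0.09 to 0.12. None of 7 islet genes was called, and Ins2, named in the same way, had 0.04 ± 0.05. In CGP and ASP+CGP the summed linear signal of the enzymes was 2464 to 2529 and 2339 to 2586, against 2272 to 2458 in CON and 6546 to 6790 in ASP.

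Genes of fat cells rose at several steps of lipid handling. Fabp4, the fatty acid binding protein of adipocytes, read 5.56, 5.51 and 5.61 in CON and 9.69, 9.72 and 9.31 in ASP, a rise of 11.9-fold against a signal of 6. Lpl, the lipoprotein lipase that frees fatty acids at the capillary wall, read 6.70, 6.72 and 6.57 and 8.63, 8.68 and 8.70, and Cd36, which takes them up, rose 4.83-fold against a signal of 6. Agpat2 of triglyceride synthesis rose 2.68-fold and Pck1, which supplies glycerol phosphate in fat, 3.09-fold. In all 6 of 13 genes of fatty acid uptake and triglyceride synthesis rose (all genes, 1.02%), with a median of 0.34. Of these, Fabp4 and Cd36 were kept by the signal filter only through their ASP arrays. Of 11 lipid droplet and lipolysis genes 6 rose, against 1.02% of all genes (median 0.53). The droplet proteins Cidec and Plin1 rose 6.38-fold and 2.95-fold, with CON arrays of 7.21, 7.26 and 7.12 and ASP arrays of 9.94, 9.79 and 9.88 for Cidec. The adipokine genes Retn and Adipoq rose 6.87-fold and 3.67-fold, the latter against a signal of 6. Lep, the leptin gene, named after its values were seen, read 5.96, 5.84 and 5.80 and 6.07, 6.01 and 6.09, close to that signal.

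Thermogenic genes of brown fat rose for 3 of 7 members by the fitted difference (all genes, 1.02%). Ucp1, the uncoupling protein, read 6.30, 6.27 and 6.16 in CON and 8.77, 8.87 and 8.83 in ASP, Cox8b rose 3.57-fold, and Elovl3, an elongase of fatty acids, had a CON mean under 6. Against a signal of 6 Elovl3 was 1.18-fold higher, which is within the 1.4-fold threshold. Of 9 adipocyte transcription factors only Pparg passed, with 7.56, 7.75 and 7.91 in CON and 8.14, 8.33 and 8.21 in ASP, at the fold threshold. It lost the call without the first CON array (log2 fold change 0.40), without the second ASP array (0.43) and after further quantile normalization (0.47). The malic enzyme gene Me1 rose 1.76-fold. It was the only called gene of 11 in fatty acid synthesis, of which 6 had an adjusted p under 0.05. Scd1, the stearoyl-CoA desaturase, read 12.70, 12.70 and 12.70 in CON and 13.22, 13.16 and 13.15 in ASP, just within 1.4-fold (adjusted p = 1.14e-06).

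The study also collected adrenal glands from these animals and used 1 RNA kit for both tissues, and the adrenal arrays were not analysed here. The part of RNA from adrenal gland, pancreas or fat in the rises of adrenal, acinar and fat genes was not tested. The summed linear signal of the adrenocortical list was 5239 to 5665 in CON and 8453 to 8860 in ASP, and that of the lipid droplet list 4646 to 4915 and 7330 to 7706. Adipocyte transcription factors had a median difference of 0.06.

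Genes that present antigen on MHC class II rose for 4 of 7 members (all genes, 1.02%). Cd74, the invariant chain, read 7.95, 7.89 and 7.98 in CON and 9.41, 9.38 and 9.49 in ASP, and H2-Aa read 8.12, 7.97 and 7.93 and 9.36, 9.39 and 9.46. H2-Ab1 rose 2.51-fold and H2-Eb1 1.53-fold. None of 6 genes of B and plasma cells and none of 5 genes of T cells was called. Mzb1 had -0.04 ± 0.07 and Cd3e 0.02 ± 0.06. Of 12 macrophage and microglia genes Lyz2, the lysozyme of macrophages, rose (8.43, 8.51 and 8.81 to 9.16, 9.29 and 9.03), and the list median was 0.05. None of 8 inflammatory mediators was called, and Nfkbia had 0.07 ± 0.04. Of 12 fibroblast and matrix genes 0 were called, with 0.46 ± 0.05 for the proteoglycan gene Dcn and -0.04 ± 0.04 for Sparc. None of 9 endothelial genes was called, with 0.02 ± 0.06 for Cldn5 of the blood-brain barrier and a list median of 0.11. In 4 of the 9 all ASP arrays lay above all CON arrays (all genes, 9.93%), and in 1 below them (all genes, 13.9%).

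Enzymes that oxidize small molecules were among the largest rises. Cyp2e1, which oxidizes ethanol, read 6.04, 6.17 and 5.99 in CON and 9.94, 9.81 and 9.83 in ASP. Adh1, the alcohol dehydrogenase that also acts on methanol, read 7.13, 7.02 and 7.10 and 10.38, 10.40 and 10.43. They were the 2 called genes of 12 in alcohol and formaldehyde metabolism (all genes, 1.02%). Other enzymes of the list were not called, with 0.44 ± 0.07 for catalase (Cat), 0.37 ± 0.12 for the mitochondrial aldehyde dehydrogenase Aldh2 and 0.00 ± 0.05 for the formaldehyde-oxidizing enzyme Adh5, all 3 named after their values were seen. Catalase had an adjusted p of 0.00289 and stayed within 1.4-fold. Of 10 drug-metabolizing cytochromes P450, Cyp2f2 (8.65, 8.72 and 8.67 to 9.30, 9.34 and 9.27) rose beside Cyp2e1. Of 19 antioxidant genes 2 rose (all genes, 1.02%), the extracellular superoxide dismutase Sod3 (1.73-fold) and the heme oxygenase Hmox1 (1.5-fold). None of 12 genes of phenylalanine and tetrahydrobiopterin metabolism was called, and Qdpr, which regenerates that cofactor, had -0.01 ± 0.04. Of 7 liver genes 2 rose (all genes, 1.02%). Alb, serum albumin, rose from 6.42, 6.67 and 6.42 to 7.56, 7.46 and 7.49, and the other was Ttr, which is also a gene of the choroid plexus. Among 11 epithelial genes 2 rose (all genes, 1.02%) and 1, Bpifa1, fell (all genes, 0.0291%), with a list median of 0.06. Ly6d, a surface protein, rose from 7.03, 7.04 and 7.22 to 10.63, 10.45 and 10.22. Epcam, an adhesion protein, rose 2.07-fold, with 7.70 in CGP and 6.69 in ASP+CGP.

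**Figure D3:**
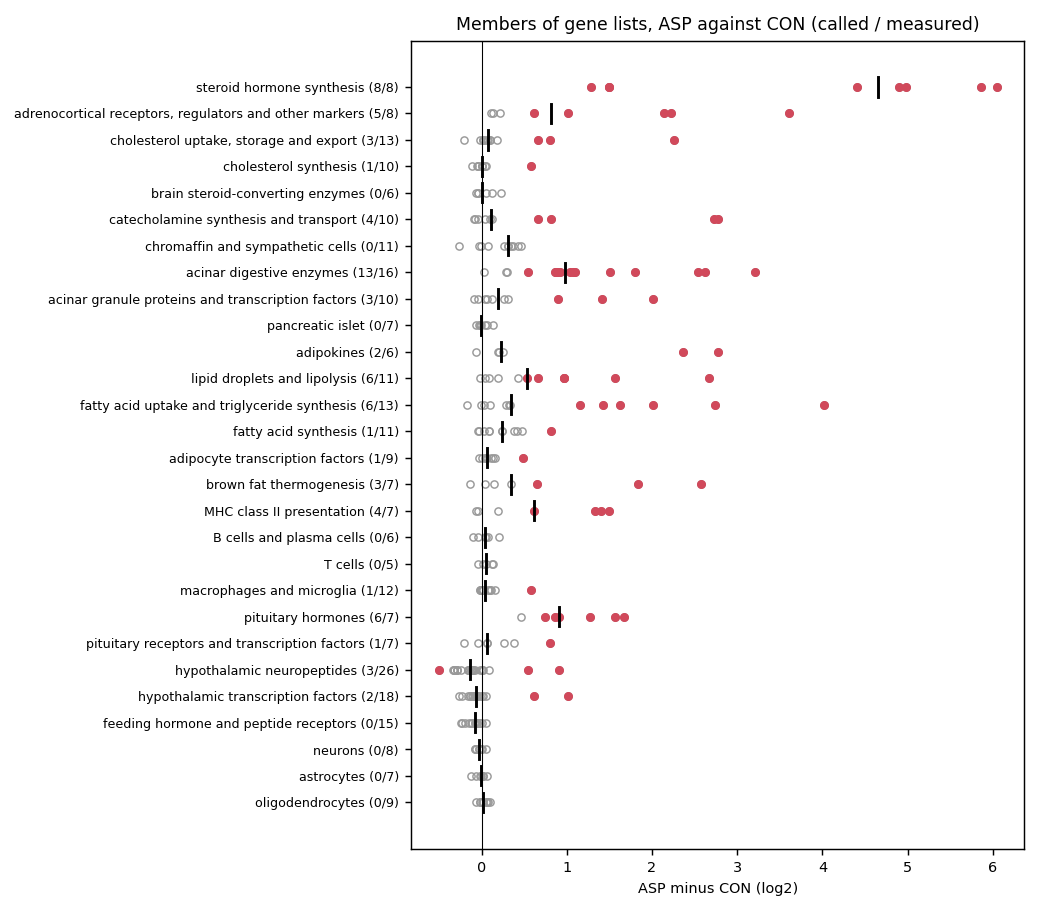
Difference of the ASP and CON means (x axis, log2) for each measured gene of 28 gene lists (y axis, with the number called and measured); filled points passed the test, open points did not, and black bars are list medians. Members of the steroid synthesis list lie between 1.28 and 6.04, and those of the neuron, astrocyte and oligodendrocyte lists between -0.13 and 0.10.

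Of the 175 upregulated genes 84 belonged to a list and 91 did not. The largest of the latter was Car3, a carbonic anhydrase abundant in fat and muscle, which read 6.83, 6.99 and 6.98 in CON and 11.32, 11.35 and 11.20 in ASP. Mgarp, a mitochondrial protein of steroid-producing tissues, read 5.16, 5.25 and 5.29 and 8.57, 8.66 and 8.53. Akr1cl, an aldo-keto reductase, rose 4.26-fold against a signal of 6, and a relative, Akr1b8, 2.67-fold. Prss35, a serine protease, read 6.74, 6.68 and 6.65 and 8.83, 9.18 and 8.95. Abcb1b, a drug efflux pump, rose 4.18-fold, Ces1d, a carboxylesterase, 3.11-fold, and Hao2, a hydroxyacid oxidase, 1.53-fold against a signal of 6. For each gene of this paragraph the CGP and ASP+CGP means lay more than 1 log2 unit below the ASP mean, as for Car3 with 6.96 and 6.99.

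Other called genes outside the lists had various roles. Pcolce, an enhancer of collagen processing, read 8.87, 8.97 and 9.03 in CON and 10.53, 10.62 and 10.61 in ASP. Emp3, a membrane protein, read 8.71, 8.78 and 9.01 and 10.49, 10.59 and 10.56. Npr1, the receptor for atrial natriuretic peptide, rose 2.31-fold, Nr0b2, a nuclear receptor that represses others, 2.33-fold, Dpep1, a dipeptidase, 2.4-fold, and Adig, an adipocyte protein, 2.29-fold. The gene 2210010C04Rik rose 3.84-fold against a signal of 6. Of 35 measured Hox genes, which set position along the body axis, 3 were upregulated (all genes, 1.02%) and 0 downregulated (all genes, 0.0291%). Hoxb9 read 7.82, 7.54 and 7.67 in CON and 8.62, 8.59 and 8.66 in ASP, Hoxc8 read 6.64, 6.61 and 6.57 and 7.51, 7.34 and 7.47, and Hoxc6 read 6.04, 6.29 and 5.70 and 6.63, 6.76 and 6.85. Hoxb9 and Hoxc8 were named after their values were seen, and so were the matrix and basement membrane genes Igfbp7 (0.73 ± 0.04), Bgn (0.75 ± 0.05) and Hspg2 (0.58 ± 0.04).

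Pituitary hormone genes rose for 6 of 7 members (all genes, 1.02%), with a median of 0.91. Prl, the prolactin gene, read 10.80, 10.67 and 11.03 in CON and 12.51, 12.49 and 12.53 in ASP. Lhb, whose product pairs with that of Cga to form luteinizing hormone, read 9.20, 9.23 and 9.58 and 10.83, 10.98 and 10.90, and Cga read 11.41, 11.43 and 11.67 and 12.80, 12.76 and 12.75. Gh, the growth hormone gene, had CON arrays of 13.34, 13.36 and 13.30 and ASP arrays of 14.08, 14.09 and 14.07, and Fshb rose 1.82-fold. Tshb was not called and had 0.46 ± 0.09. Gh and Tshb were named after their values were seen. The third CON array was the highest of its pool for Prl, Lhb and Cga and still lay below every ASP array. Their levels also differed between the other pools. Prl stood at 12.22 in CGP and 7.61 in ASP+CGP, and the summed linear signal of the 7 genes was 17682 to 18583 in CON, 36188 to 36502 in ASP, 32205 to 32775 in CGP and 3951 to 4537 in ASP+CGP. Of 7 pituitary receptors and transcription factors only Ghrhr, the receptor for growth hormone-releasing hormone, rose (8.52, 8.63 and 8.62 to 9.40, 9.31 and 9.48).

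Of 26 hypothalamic neuropeptide genes 20 had a mean in ASP below that in CON. Most of all genes also lay at or below CON, since 7500 of 17186 had a mean in ASP above it. By the call rule 2 of the 26 rose (all genes, 1.02%) and 1 fell (all genes, 0.0291%). Npy, which stimulates feeding, read 11.36, 11.39 and 11.65 in CON and 12.04, 12.01 and 11.98 in ASP, above its means in CGP (11.17) and ASP+CGP (11.04). Pomc, the precursor of ACTH and of a melanocortin that restrains feeding, is made in both hypothalamus and pituitary. It read 10.84, 10.88 and 10.91 and 11.74, 11.85 and 11.78, with 11.47 in CGP and 9.21 in ASP+CGP, the order of pools also seen for Prl. The part of pituitary RNA in these differences was not tested. Avp, the vasopressin gene, fell, from 11.26, 11.25 and 11.26 to 10.67, 10.80 and 10.82. Without the first ASP array its value was -0.45, within the fold threshold. In 15 of 26 genes all ASP arrays lay below all CON arrays (all genes, 13.9%), and the list median was -0.14. At an adjusted p under 0.05 and any fold, 7 of 26 were lower (all genes, 1.16%).

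Against the mean of CGP and ASP+CGP the list median was -0.03, and 0 of 26 genes were lower at an adjusted p under 0.05. Of all 17186 genes 401 were lower by that rule, so the count of 0 does not set the list apart from all genes. Oxt, the oxytocin gene, read 12.04, 12.12 and 12.25 in CON and 11.76, 11.85 and 11.82 in ASP, a difference of -0.33 ± 0.05, against -0.01 ± 0.04 relative to the other treated pools. Cartpt, whose peptide restrains feeding, had -0.32 ± 0.06 and -0.12 ± 0.06 in the same order, and Trh, thyrotropin-releasing hormone, -0.24 ± 0.04 and 0.05 ± 0.03. Pmch and Hcrt, which mark neurons of the lateral hypothalamus, had -0.29 ± 0.07 and -0.16 ± 0.04 relative to CON. Crh, at the head of the stress axis, read 7.14, 7.10 and 6.98 and 7.13, 7.02 and 7.10 and had 0.01 ± 0.07. Oxt, Cartpt, Trh, Pmch, Hcrt and Crh were named after their values were seen.

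**Figure D4:**
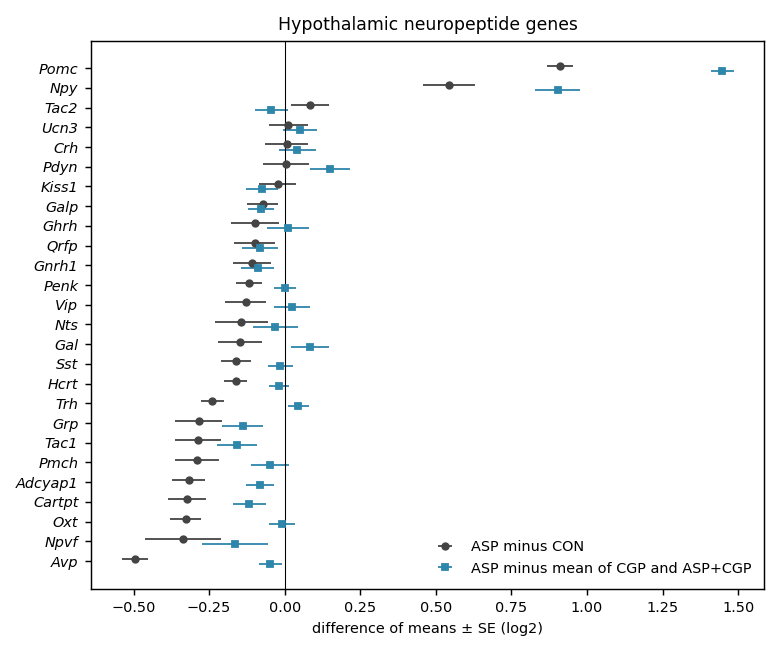
Difference of means ± SE (x axis, log2) of 26 hypothalamic neuropeptide genes (y axis) for ASP minus CON (circles) and ASP minus the mean of CGP and ASP+CGP (squares); both use the same 3 ASP arrays. For Avp the circle lies at -0.50 and the square at -0.05.

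Transcription factors of hypothalamic nuclei rose for 2 of 18 genes (all genes, 1.02%). Tbx3, present in arcuate neurons and in other organs, read 8.81, 8.80 and 8.76 in CON and 9.69, 9.84 and 9.87 in ASP, and the other was Nr5a1. The list median was -0.07. None of 15 receptors for feeding hormones and peptides was called (median -0.07), with 0.06 ± 0.07 for the insulin receptor gene Insr and -0.02 ± 0.08 for Glp1r. Lepr, the leptin receptor gene named after its values were seen, had -0.23 ± 0.06 and ASP arrays all below the CON arrays.

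The largest fall was in Slc6a5, which encodes the GlyT2 transporter of glycinergic neurons. Its CON arrays read 9.37, 9.61 and 9.33 and its ASP arrays 8.11, 8.03 and 7.88, a 2.7-fold fall. In CGP and ASP+CGP it was lower still (7.41 and 7.53), and ASP lay above their mean by 0.54 ± 0.07 (adjusted p = 0.000213). Glra1, the glycine receptor subunit of brainstem and spinal cord, read 10.02, 9.93 and 9.88 and 9.65, 9.58 and 9.52 (adjusted p = 0.000252), within 1.4-fold. Of 9 genes of glycine signalling only Slc6a5 was called, and Slc6a9, the glial glycine transporter, named after its values were seen, had 0.06 ± 0.06. Bpifa1, a secreted protein of airway epithelium, fell 2.06-fold, from 7.84, 7.73 and 8.05 to 6.91, 6.84 and 6.74, with 6.99 in CGP and 6.89 in ASP+CGP. Lamp5, a membrane protein of certain forebrain neurons, read 9.71, 9.79 and 9.60 and 9.11, 9.18 and 9.18, with 9.12 and 9.17 in the other pools. Csmd3 read 9.57, 9.39 and 9.82 and 9.14, 9.05 and 8.98. Without the third CON array its value was -0.42, and with its probe sets averaged -0.33, both within the threshold. All 5 downregulated genes had their highest mean in CON among the 4 pools, and for Csmd3 that of ASP+CGP was close to it (9.52).

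Thalamus genes showed a small difference in the other direction. Of 11 measured genes 10 had all ASP arrays above all CON arrays (all genes, 9.93%), and the same 10 had an adjusted p under 0.05 (higher among all genes, 2.92%), but 0 passed the fold threshold. Tcf7l2, a transcription factor of thalamic neurons, read 11.06, 11.07 and 11.17 in CON and 11.27, 11.30 and 11.33 in ASP, and Ntng1, an axon guidance protein, 11.31, 11.37 and 11.30 and 11.49, 11.50 and 11.51. The list median was 0.21 relative to CON and -0.11 relative to the mean of CGP and ASP+CGP. The summed linear signal of the list was 11961 to 12337 in CON, 13973 to 14178 in ASP, 15140 to 15201 in CGP and 15506 to 15595 in ASP+CGP. Habenula genes had medians of 0.21 and -0.23 in the same order. Of 7 only Chrnb4, a nicotinic receptor subunit, rose, from 8.36, 8.41 and 8.26 to 8.86, 8.88 and 8.87. It stood at 9.14 in CGP, and without the third CON array its value of 0.48 just missed the threshold. The part of neighbouring brain tissue in these differences was not tested.

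**Figure D5:**
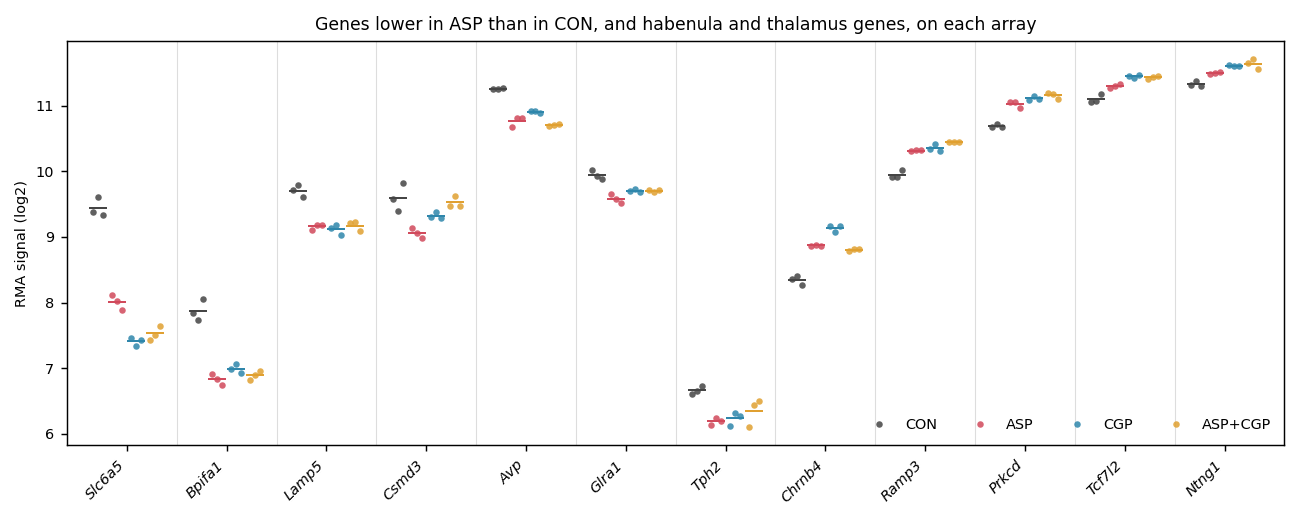
RMA signal (y axis, log2) of the 5 downregulated genes, of Glra1 and Tph2, and of the habenula gene Chrnb4 and 4 thalamus genes (x axis), 1 point per array and 1 short bar per pool mean, for all 4 pools. CON lies above the ASP arrays for the first 7 genes and below them for the last 5, as for Slc6a5 with means of 9.44 in CON and 8.01 in ASP; Tph2, Ramp3 and Prkcd were drawn after their values were seen.

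Of 8 hindbrain and spinal cord genes 2 rose, Hoxc6 and Slc6a4 (all genes, 1.02%). Another 1 fell (all genes, 0.0291%), Slc6a5, which had the largest change of the list. Slc6a4, the serotonin transporter, rose 1.41-fold, from 6.93, 6.91 and 6.85 to 7.44, 7.28 and 7.47. Tph2, which makes serotonin and was named after its values were seen, lay the other way, at 6.61, 6.65 and 6.73 in CON and 6.13, 6.24 and 6.20 in ASP (-0.47 ± 0.09). In the choroid plexus list Ttr, the thyroxine carrier, read 11.71, 11.68 and 11.90 and 12.48, 12.54 and 12.48, with 12.19 in CGP and 12.26 in ASP+CGP. Aqp1 (7.21, 7.18 and 7.10 to 7.83, 7.59 and 7.60) was the other called member of 10. Aqp1 and Slc6a4 missed the threshold without the third CON array (0.48 and 0.47) and without the first ASP array (0.43 and 0.48), and Slc6a4 also without the third ASP array (0.46) and after further quantile normalization (0.48). Meninges genes were not called (median -0.06), and Prg4, a lubricating proteoglycan, had -0.40 ± 0.06. Among well expressed genes below CON within 1.4-fold were also Hdc, which makes histamine in the tuberomammillary nucleus (9.22, 9.25 and 9.32 to 8.95, 8.97 and 8.85), Slc47a1, an efflux transporter (-0.35 ± 0.05), and Ucma (-0.34 ± 0.07). Those above CON were Clic1 (0.48 ± 0.07), Nid1 (0.48 ± 0.05), Creb3l2 (0.48 ± 0.05), Pcsk5 (0.48 ± 0.06) and Scd1.

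Of 10 genes that respond to glucocorticoids only Pdk4, a kinase that spares glucose, rose, from 9.41, 9.48 and 9.55 to 10.32, 10.36 and 10.44, and the list median was -0.03. Fkbp5 and Tsc22d3, standard targets of the glucocorticoid receptor named after their values were seen, had -0.01 ± 0.05 and -0.04 ± 0.04. The receptor genes Nr3c1 and Nr3c2 had -0.03 ± 0.04 and -0.12 ± 0.05. Of 12 immediate early genes, which neurons switch on with activity, only Nr4a1 rose (10.24, 10.31 and 10.04 to 10.58, 10.77 and 10.77), though in 8 of 12 all ASP arrays lay above all CON arrays (all genes, 9.93%) and the median was 0.18. Nr4a1 missed the threshold without the third CON array (0.43), the second ASP array (0.48) or the third ASP array (0.48).

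Of 8 neuron, 7 astrocyte and 9 oligodendrocyte genes 0 were called, with medians of -0.03, -0.01 and 0.02. Snap25, a synaptic protein, read 13.54, 13.58 and 13.52 in CON and 13.56, 13.54 and 13.55 in ASP, Slc1a2, the glutamate transporter of astrocytes, 12.38, 12.49 and 12.39 and 12.40, 12.42 and 12.36, and Mbp, myelin basic protein, 13.10, 13.14 and 13.07 and 13.09, 13.09 and 13.08. None of 6 measured NMDA receptor subunit genes, 15 clock genes or 13 genes of the unfolded protein and heat shock response was called, with 0.10 ± 0.08 for Grin2b, 0.10 ± 0.05 for Nr1d1 and -0.02 ± 0.04 for Hspa5. In all, 30 of 61 lists had no called gene among their 229 measured entries, and their medians ranged from -0.131 to 0.308. These included lists of other tissues, with 0.03 ± 0.08 for the kidney gene Umod, named after its values were seen, and -0.02 ± 0.05 for the skeletal muscle gene Acta1.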

How the data were processed

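The 12 hybridizations to Affymetrix Mouse Gene ST arrays were summarised by the authors with RMA in Partek and deposited as log2 values for 29149 probe sets. RMA corrects background, equalizes the distribution of signals over arrays and combines probes, so a gene is measured relative to the rest of its array, and a shift shared by most genes would be removed. No counts exist, and the number of arrays limits the precision. Symbols came from the platform annotation, which gave 1 symbol to 19019 probe sets, several to 1197 and none to 8933. A gene was represented by its single-symbol probe set of highest mean and kept at a signal of 6 or more on at least 3 arrays. A gene could thus be kept through its ASP arrays alone. List members such as Hsd3b1, Mc2r, Fabp4, Cd36, Adipoq, Elovl3 and Zg16 lay under 6 on every array of the other pools. Cpb1 did so on all but 1 array, of ASP+CGP (6.04). The called shares and medians of the lists that hold these genes therefore follow in part from the filter. Without the filter 17380 genes were tested and 176 were higher, 175 of them shared. Means of the 4 groups were fitted over all 12 arrays with limma 3.58.1 in R 4.3.3 (lmFit, eBayes), with 8 residual degrees of freedom and Benjamini-Hochberg adjustment over 17186 genes. Called genes had an adjusted p under 0.05 and a fold over 1.4. An exact permutation test of 3 arrays against 3 cannot go below 0.1 (two-sided) and was not used. Folds of genes with a CON mean below 6 are given against 6 where stated. Groups and replicate numbers came from the labels, which do not say that a number links arrays of different groups. The comparison, 61 gene lists and rules were chosen with earlier results of these data known.

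Genes were named as follows: the 15 largest rises and all falls among called genes whose arrays do not overlap, the 15 largest rises in no list, up to 5 called members of each list, the 2 members of highest signal in a list with none called, Actb, and, at an adjusted p under 0.05 within 1.4-fold, the 5 largest rises and 5 largest falls with a mean signal of at least 8. Other genes are said to have been chosen after their values were seen. The scripts were tested on simulated data. Alternatives varied the signal filter, the choice of probe set, normalization, the arrays fitted, the test, the fold threshold and a replicate block, and left out each ASP and CON array in turn.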

Additional observations from a re-analysis of the deposited data

Results flagged for a closer look

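Signal was also present in probe sets that no comparison used because the annotation gave them several gene symbols or none. Of these, 33 were called higher in ASP than in CON by the same rule, 11 of 1168 tested with several symbols and 22 of 8542 with none, and 7 of the latter were called lower.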

How the results depend on the processing

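The 175 higher and 5 lower genes stayed within 1.5 times these counts in most alternatives. At a signal of 8 on at least 3 arrays 112 genes were higher, with 11077 genes tested. Fold thresholds of 1.2 and 2 gave 374 and 70 higher and 51 and 2 lower genes. Further quantile normalization gave 8 lower genes, adding Mir376a, Mir690 and Zfp931. With the replicate block in the fit the counts were 175 and 5, with all of these genes shared, and without moderation of the spread 172 and 5. Deviations of same-numbered ASP and CON arrays from their pool means correlated at -0.071, 0.123 and -0.061. Over all 6 pairs of groups these correlations ranged from -0.106 to 0.541, and 1 pair, CON and ASP+CGP, had all 3 above 0.1 (0.17, 0.256 and 0.541). In that pair the first and second CON arrays correlated better with an array of another number (0.253 and 0.421). Leaving out 1 array gave 173 to 185 higher and 6 to 8 lower genes, 8 without the second CON array, and of the 175 at least 165 were shared. Of 90 named genes that were called, 7 lost the call at a fold of 1.4 in some alternative (Aqp1, Avp, Chrnb4, Csmd3, Nr4a1, Pparg and Slc6a4) and none changed direction. Csmd3 had -0.38 on the probe set of lowest p. The causes were not tested. Signals near 6 lie close to the background of these arrays, so folds from such levels are least certain.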
